A study of Danio rerio with 8 samples.

Results

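Nodal is the signal that sets aside mesoderm and endoderm at the margin of the early fish embryo. Its ligands are secreted proteins of the TGF-beta family, which bind a receptor complex of type I and type II activin receptors together with a co-receptor of the EGF-CFC family. The receptors phosphorylate Smad proteins, which enter the nucleus and act with DNA-binding partners such as Foxh1. The Lefty proteins are themselves Nodal targets and block the receptor complex, so the pathway carries its own feedback inhibitors. Here 10 genes of this pathway were followed in zebrafish gastrulae with and without the miR-34a gene. They were chosen by name for their place in the pathway, with earlier results of these data known. All 10 were found among the 32520 genes counted. The members are the ligand genes ndr1, ndr2 and gdf3, the Lefty genes lft1 and lft2, the co-receptor gene tdgf1, the type I receptor gene acvr1ba, the Smad gene smad2 and the transcription factor genes foxh1 and mixl1.

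Polyadenylated RNA of whole embryos at 8 hpf (hours post fertilization, during gastrulation) was sequenced in 4 libraries of miR-34a-/- embryos and 4 libraries of wild-type embryos. Both genotypes carried the casper background, a line that lacks most of its pigment, and whole embryos were pooled for each library. The study states that the mutants were kept as a separate homozygous line, and that the wild-type embryos were not their siblings. It adds that the lines may differ somewhat genetically, which can add to variability in expression. Line and genotype cannot be told apart here. All mutants go back to the same CRISPR/Cas9 deletion allele of miR-34a, and no second allele stands beside it here. Since the line was kept homozygous, its embryos lack the gene in both the maternal supply and the zygote. The other stages of the study were not analysed here.

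miR-34a is a small RNA that represses mRNAs through its seed, bases 2 to 8. A perfect site for it, which the study built into a fluorescent reporter, is given first, with the stretch that pairs with the seed in capitals, and its RNA complement follows with the seed itself in capitals. They show which RNA the mutants lack and the site that it recognizes.
Reporter site: acaaccagctaagaCACTGCCa
RNA complement: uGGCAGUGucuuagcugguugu

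The mir34a gene had 0 counts in each of the 8 libraries, and so did mir34b and mir34c, so the genotype labels could not be checked on the deleted gene. Up to 3 counts are possible where 0 were seen, for counting error only. The libraries held between 8159574 and 15724724 counts in miR-34a-/- embryos and between 7132045 and 11191023 counts in wild-type embryos. Levels are given as CPM, counts scaled to a common library size after TMM normalization. By the library totals alone, before TMM, a single count stood for 0.0636 to 0.140 CPM depending on the library. CPM is not corrected for gene length, so it does not rank different genes by their amount of RNA. Sums over a list are sums of CPM, and the genes said to lead a list are those highest in mean CPM. The labels number the libraries as replicates but do not say that they came from separate clutches, so the p-values measure the spread between these libraries, which may be technical. A gene was called where its p from the quasi-likelihood test of edgeR, adjusted by Benjamini-Hochberg over the 13842 genes tested, was under 0.05. Fold changes are miR-34a-/- over wild-type. By this test 45.4% of all genes tested were called, 23% higher and 22.4% lower in miR-34a-/- embryos, and the median log2 fold change of all genes was -0.00.

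Of the 10 Nodal signalling genes, 9 were called, and 8 of them were lower in miR-34a-/- embryos. Both Lefty genes, both Nodal ligand genes ndr1 and ndr2, the co-receptor gene tdgf1 and smad2 were lower in every miR-34a-/- library than in any wild-type library. The ligand gene gdf3 was the single member that was higher, and acvr1ba was the single member that was not called. The median log2 fold change of the 10 members was -0.40. The genotypes did not overlap for 7 members, 6 of them lower and 1 higher in miR-34a-/- embryos. The same held for 38.8% of all genes, 19.2% lower and 19.6% higher. For each of these 7 members an exact two-sided permutation test of the 70 assignments of the libraries gave p = 0.0286, the smallest that this design allows. Any gene without overlap gives this value, so it adds nothing to the lack of overlap. A change of at least 1.5-fold was reached by ndr1, ndr2 and lft1, all lower, where 8.76% of all genes were called and lower by as much. Of these, ndr1 had enough counts to be tested through the wild-type libraries, where it was higher. No member reached 2-fold in edgeR, also at an unadjusted p under 0.05, nor in DESeq2, while limma-voom gave 1, ndr1. In edgeR 8.11% of all genes reached 2-fold in either direction. These are whole embryos, in which fewer cells of a type and less RNA per cell cannot be told apart. The 8 genes listed as markers of the segmentation stages are described with the cell type markers. Their sums, led by tbx6 and myf5, were 14.5 to 18.5 CPM in miR-34a-/- libraries and 26.2 to 34.6 CPM in wild-type libraries. The part of stage in these results was not tested.

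**Figure D1:**
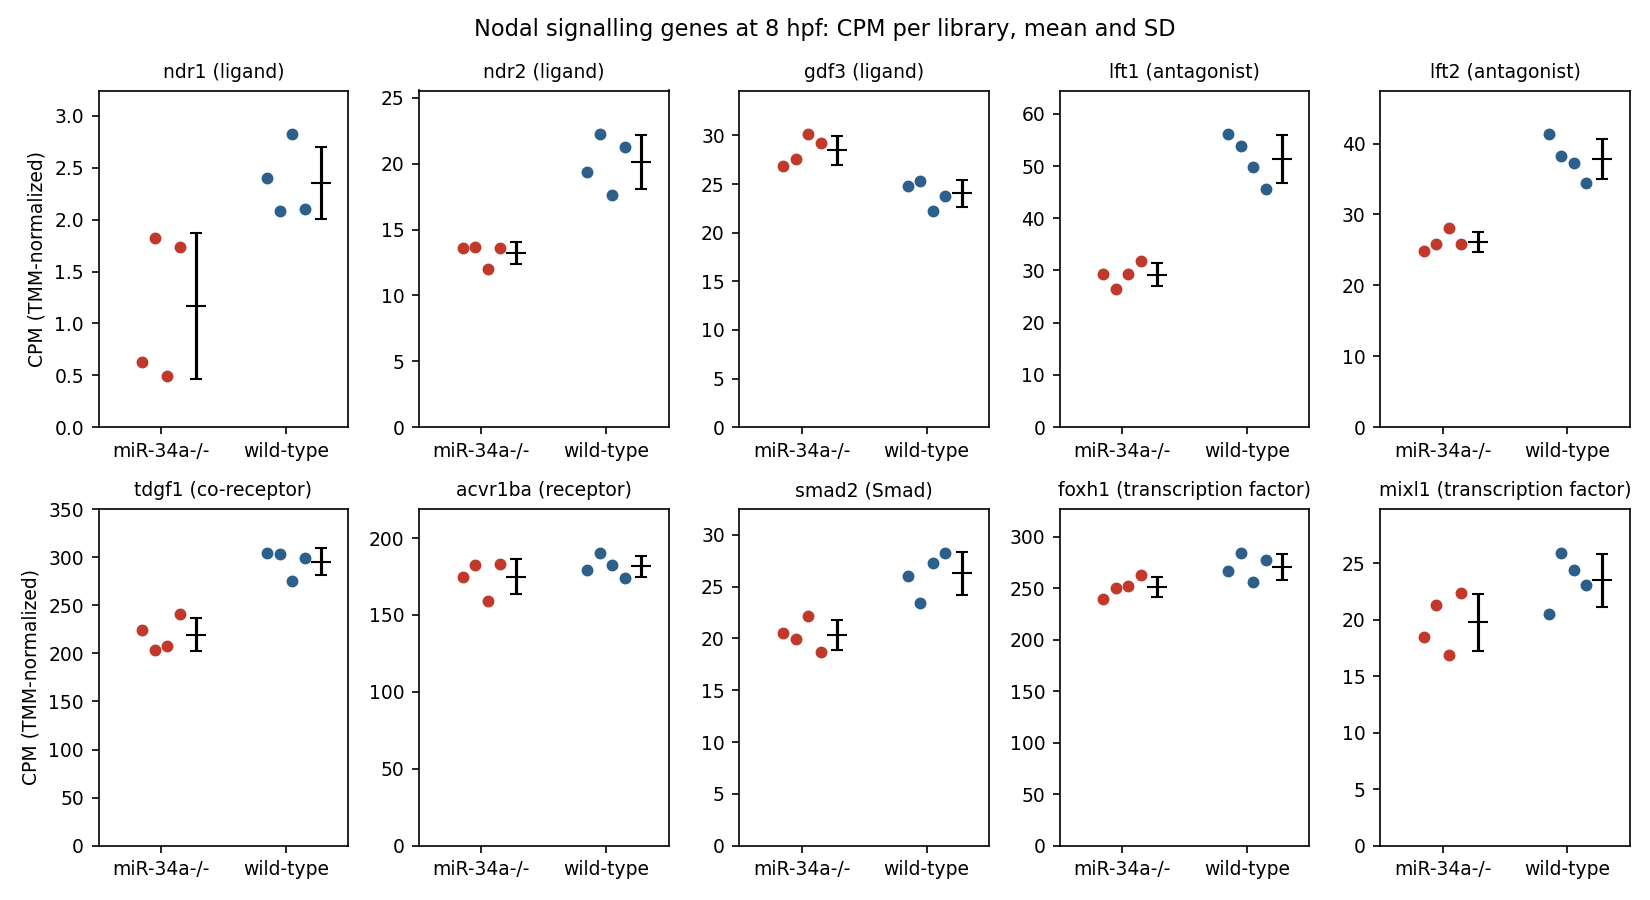
CPM of the 10 Nodal signalling genes in each library (y axis, TMM-normalized CPM, starting at 0), with the 4 miR-34a-/- libraries on the left and the 4 wild-type libraries on the right of each panel. Points are libraries in replicate order and the bars give mean and SD (n = 4). The miR-34a-/- points lie below all wild-type points for ndr1, ndr2, lft1, lft2, tdgf1 and smad2 and above them for gdf3.

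The Lefty genes encode the secreted feedback inhibitors of Nodal, and lft1 (ENSDARG00000019920) had the smallest adjusted p of the members. It stood at 29.3, 26.5, 29.3 and 31.8 CPM in miR-34a-/- replicates 1 to 4, against 56.1, 53.8, 49.9 and 45.6 CPM in wild-type replicates 1 to 4. The highest miR-34a-/- library was thus well below the lowest wild-type library. The means were 29.2 ± 2.17 CPM in miR-34a-/- embryos and 51.3 ± 4.59 CPM in wild-type embryos (SD, n = 4 each), a log2 fold change of -0.81 (SE 0.07, edgeR adjusted p = 8.0e-10), or 1.75-fold lower. Its paralog lft2 (ENSDARG00000044059) had 24.8, 25.8, 28.2 and 25.8 CPM in miR-34a-/- embryos, against 41.3, 38.3, 37.3 and 34.4 CPM in wild-type embryos. The genotypes were again apart, by a log2 fold change of -0.54 (SE 0.07, edgeR adjusted p = 1.1e-06), or 1.45-fold lower. Both calls were kept when any single library was left out.

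The levels of the Lefty genes relative to each other differed as well. The ratio of lft1 to lft2 counts was 1.18, 1.03, 1.04 and 1.23 in miR-34a-/- libraries, against 1.36, 1.40, 1.34 and 1.33 in wild-type libraries. The ratio was thus lower in every miR-34a-/- library, and the fitted reduction of lft1 was larger than that of lft2. Such a ratio does not depend on the normalization, and no test was made of it. Sequence shared by the Lefty genes could blur it, since how reads matching both were counted is not given in the sources used here.

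Among the ligand genes, ndr2 (ENSDARG00000101279, the cyclops ligand) is expressed in the margin and then in the axial mesoderm of the gastrula. It had 13.6, 13.7, 12.0 and 13.6 CPM in miR-34a-/- embryos, against 19.3, 22.2, 17.6 and 21.3 CPM in wild-type embryos. The miR-34a-/- libraries lay close together and below every wild-type library. ndr2 thus had a log2 fold change of -0.59 (SE 0.10, edgeR adjusted p = 1.6e-05), or 1.51-fold lower, and the call was kept when any single library was left out.

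The other Nodal ligand gene, ndr1 (ENSDARG00000057096, squint), is known for early expression at the margin and was close to the limit of detection at this stage. It had 6, 20, 4 and 27 counts in miR-34a-/- replicates 1 to 4, or 0.627, 1.82, 0.490 and 1.73 CPM, against 21, 22, 32 and 15 counts in wild-type replicates 1 to 4, or 2.40, 2.08, 2.82 and 2.10 CPM. The miR-34a-/- libraries fell into a low pair, replicates 1 and 3, and a pair just under the wild-type range. The wild-type libraries alone had enough counts for ndr1 to be tested, and the miR-34a-/- libraries alone did not. With no filter on low counts edgeR still called it (log2 fold change -0.90, adjusted p = 0.0075). The log2 fold change was -0.90 (SE 0.31, edgeR adjusted p = 0.018), with a 95% interval from -1.53 to -0.28, the widest of the members. The call did not survive the removal of miR-34a-/- replicate 1 (log2 fold change -0.71, adjusted p = 0.0662), miR-34a-/- replicate 3 (-0.70, adjusted p = 0.0598) or wild-type replicate 3 (-0.80, adjusted p = 0.0616).

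The third ligand gene moved the other way. gdf3 (ENSDARG00000037995) encodes the Vg1 protein, which is supplied maternally and forms heterodimers with the Nodal ligands. It had 26.9, 27.6, 30.1 and 29.3 CPM in miR-34a-/- embryos, against 24.8, 25.3, 22.2 and 23.8 CPM in wild-type embryos. Every miR-34a-/- library was above every wild-type library, by a narrow margin. The fitted log2 fold change was 0.24 (SE 0.08, edgeR adjusted p = 0.012), and without wild-type replicate 3 it was 0.20 with an adjusted p = 0.0607. The ratio of ndr2 to gdf3 counts combined both directions, with 0.506, 0.495, 0.398 and 0.465 in miR-34a-/- libraries against 0.779, 0.877, 0.794 and 0.894 in wild-type libraries. Among 7 other genes of oocyte and maternal RNA, 6 were tested and 2 were called, both higher in miR-34a-/- embryos, beside 23% of all genes. Their summed level, led by h1m and ccna1, ranged over 104 to 165 CPM in miR-34a-/- embryos and 114 to 145 CPM in wild-type embryos, and none was at 0 in every library. The part of maternal RNA in the gdf3 result was not tested.

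**Figure D2:**
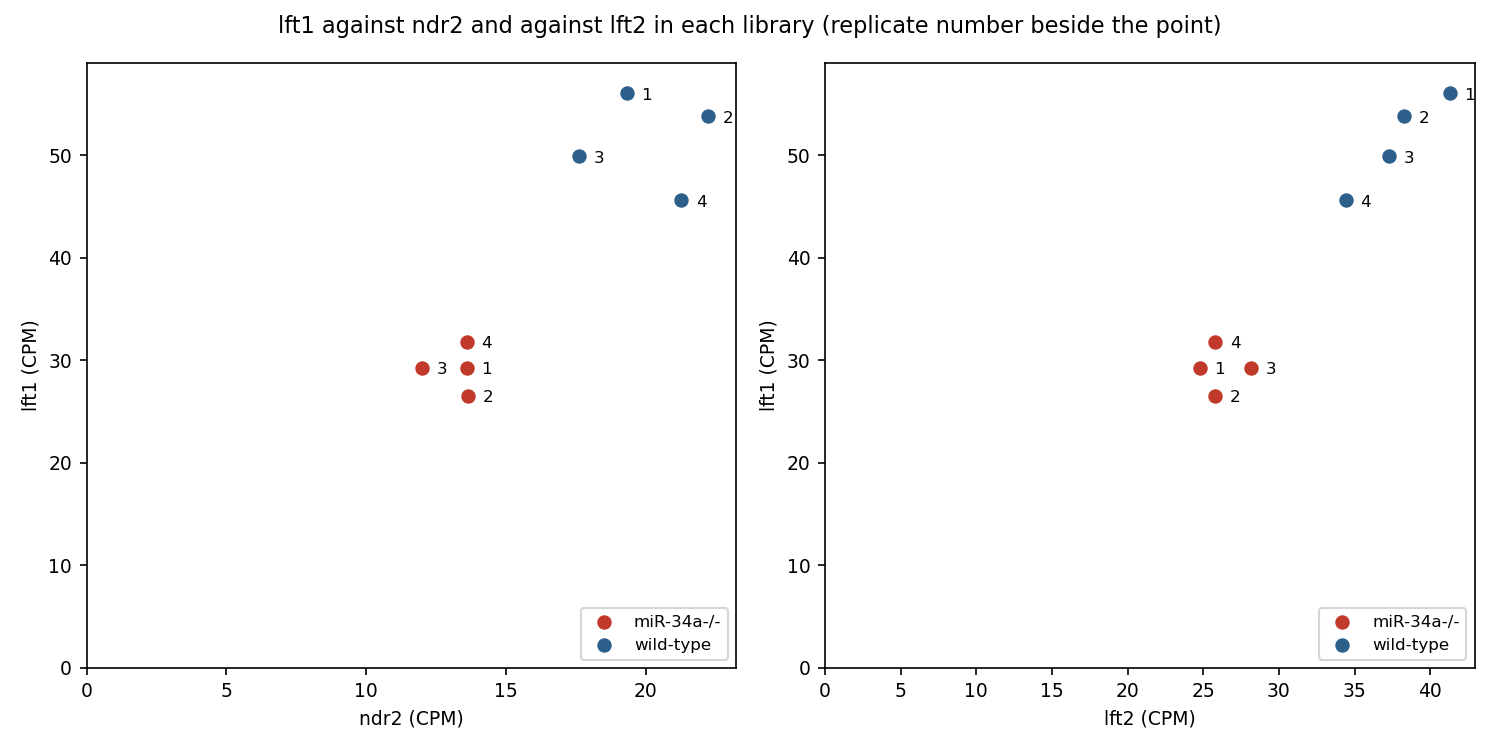
Level of lft1 (y axis, CPM) against ndr2 (left, x axis, CPM) and against lft2 (right, x axis, CPM), 1 point per library with its replicate number. The miR-34a-/- libraries form a group at 26.5 to 31.8 CPM of lft1 and the wild-type libraries a group at 45.6 to 56.1 CPM, and the groups overlap on no axis.

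The ligand ndr2 and its inhibitor lft1 were reduced together. The ratio of lft1 to ndr2 counts was 2.15, 1.94, 2.44 and 2.34 in miR-34a-/- libraries, against 2.90, 2.42, 2.83 and 2.14 in wild-type libraries. These ranges overlapped, with wild-type replicate 4 at the level of miR-34a-/- replicate 1. The ratio of lft2 to ndr2 counts overlapped too, at 1.82 to 2.35 in miR-34a-/- libraries and 1.62 to 2.14 in wild-type libraries.

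The members that receive and carry the signal were lower or were not called. The co-receptor gene tdgf1 (ENSDARG00000035095, one-eyed pinhead), without which Nodal ligands cannot signal, had 224, 204, 207 and 241 CPM in miR-34a-/- embryos, against 305, 303, 275 and 299 CPM in wild-type embryos. The miR-34a-/- libraries all lay below the wild-type libraries. For tdgf1 the fitted log2 fold change was -0.43 (SE 0.05, edgeR adjusted p = 6.4e-08), 1.34-fold lower, and no single library decided the call.

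The type I receptor gene acvr1ba (ENSDARG00000018968) encodes the receptor kinase that phosphorylates Smad2. It had 175, 183, 159 and 183 CPM in miR-34a-/- embryos, against 179, 190, 183 and 174 CPM in wild-type embryos. The ranges overlapped, with miR-34a-/- replicate 3 the lowest of all 8 libraries. Its fitted log2 fold change was -0.05 (SE 0.05, edgeR adjusted p = 0.38) with a 95% interval from -0.15 to 0.05, which leaves room for a small change in either direction. Its identifier was told from that of acvr1bb by the neighbouring genes, since the table of gene names gave both the same human symbol.

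Downstream of the receptor, smad2 (ENSDARG00000006389), the gene of the Smad protein that carries the signal to the nucleus, had 20.5, 19.9, 22.2 and 18.7 CPM in miR-34a-/- embryos, against 26.1, 23.5, 27.3 and 28.3 CPM in wild-type embryos. The genotypes did not overlap. In the fit smad2 differed by -0.38 on the log2 scale (SE 0.09, edgeR adjusted p = 0.00069), 1.30-fold lower, and it remained called without any single library.

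Its DNA-binding partner foxh1 (ENSDARG00000055630) had 239, 250, 253 and 263 CPM in miR-34a-/- embryos, against 267, 284, 256 and 278 CPM in wild-type embryos. Here miR-34a-/- replicate 4 reached into the wild-type range, and the difference was the smallest of the members called, with a log2 fold change of -0.11 (SE 0.04, edgeR adjusted p = 0.042). An exact permutation test of foxh1 gave p = 0.0571 (two-sided). The call was lost with DESeq2 (adjusted p = 0.0532), with edgeR's likelihood ratio test (adjusted p = 0.0536) and with no filter on low counts (adjusted p = 0.0755). It was also lost without miR-34a-/- replicate 1 (log2 fold change -0.09, adjusted p = 0.159), 2 (-0.10, adjusted p = 0.0929) or 3 (-0.11, adjusted p = 0.0733), and without wild-type replicate 1 (-0.12, adjusted p = 0.0505), 2 (-0.09, adjusted p = 0.124) or 4 (-0.10, adjusted p = 0.0918). With a larger fitted change of tdgf1 than of foxh1, the ratio of foxh1 to tdgf1 counts was 1.07 to 1.23 in miR-34a-/- libraries and 0.876 to 0.938 in wild-type libraries. foxh1 was on the study's list of predicted miR-34 targets, and no other member was found in the part of that list read here. Repression of foxh1 by miR-34a was not tested.

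The homeobox gene mixl1 (ENSDARG00000069252) is an early Nodal target that acts in the formation of endoderm. It had 18.5, 21.3, 16.9 and 22.3 CPM in miR-34a-/- embryos, against 20.5, 25.9, 24.4 and 23.1 CPM in wild-type embryos. The ranges overlapped through wild-type replicate 1, and the exact two-sided permutation test gave p = 0.114. The log2 fold change was -0.24 (SE 0.10, edgeR adjusted p = 0.045), and the call was lost with DESeq2 (adjusted p = 0.0714) and limma-voom (adjusted p = 0.0509). It was lost as well without miR-34a-/- replicate 1 (-0.20, adjusted p = 0.121) or 3 (-0.17, adjusted p = 0.152) and without wild-type replicate 2 (-0.19, adjusted p = 0.145), 3 (-0.22, adjusted p = 0.0930) or 4 (-0.25, adjusted p = 0.0604).

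The members did not all share the same order of the libraries within a genotype. Their sums were 773, 773, 758 and 830 CPM in miR-34a-/- replicates 1 to 4, lowest in the shallowest and highest in the deepest of these libraries. In wild-type replicates 1 to 4 the sums were 941, 969, 895 and 929 CPM, lowest in the deepest library. The part of depth in these levels was not tested. Among the miR-34a-/- libraries, replicate 3 had the lowest level of ndr1, ndr2, acvr1ba and mixl1 and the highest level of gdf3, lft2 and smad2. Replicate 4 had the highest level of lft1, tdgf1, acvr1ba, foxh1 and mixl1 and the lowest of smad2. The coefficient of variation within the miR-34a-/- libraries was 60.5% for ndr1, the gene with the fewest counts, and between 3.80% and 12.7% for the other members.

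The rest of the pathway was read from a list of 23 further genes of ligands, receptors, Smads, partners and inhibitors, all of which were found in the counts and 19 of which were tested. Of these, 5 were called, 2 higher and 3 lower in miR-34a-/- embryos, beside 45.4% of all genes. Their median log2 fold change was 0.08, against -0.40 for the 10 members. The products of the type II receptor genes form the other chain of the activin receptors, and those called moved in both directions. acvr2aa (log2 fold change -0.06) and acvr2ab (0.25) were not called. The identifiers of acvr2ba and acvr2bb, which shared a human symbol, were told apart by the neighbouring genes. acvr2ba had 10.7, 10.2, 11.6 and 12.2 CPM in miR-34a-/- embryos, against 15.2, 18.3, 16.8 and 18.5 CPM in wild-type embryos, with no overlap. Its log2 fold change was -0.61 (SE 0.10, edgeR adjusted p = 2.1e-05). Its paralog acvr2bb had 40.9, 44.8, 34.4 and 43.6 CPM in miR-34a-/- embryos, against 26.4, 31.2, 33.4 and 36.1 CPM in wild-type embryos. Only wild-type replicate 4 reached into the miR-34a-/- range, and the log2 fold change was 0.38 (SE 0.09, edgeR adjusted p = 0.00074).

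The inhibitors called also differed in direction. skila, a gene of the Ski family of co-repressors that bind Smads, had 4.60, 4.55, 4.41 and 5.71 CPM in miR-34a-/- embryos, against 7.66, 8.23, 10.1 and 9.23 CPM in wild-type embryos. At a log2 fold change of -0.84 (SE 0.14, edgeR adjusted p = 2.6e-05), or 1.80-fold lower, it was the most reduced gene of this list. drap1, a co-repressor known to restrain Nodal signalling through Foxh1 in the mouse, had 476, 501, 454 and 502 CPM in miR-34a-/- embryos, against 370, 393, 369 and 380 CPM in wild-type embryos. All miR-34a-/- libraries were above all wild-type libraries, with a log2 fold change of 0.36 (SE 0.04, edgeR adjusted p = 4.3e-08). dact2, whose product promotes the degradation of Nodal receptors, had 83.0, 81.1, 83.2 and 86.9 CPM in miR-34a-/- embryos, against 103, 96.1, 88.3 and 87.7 CPM in wild-type embryos. The genotypes of dact2 were apart by less than 1 CPM, and its log2 fold change of -0.17 (SE 0.06, edgeR adjusted p = 0.016) was no longer called without miR-34a-/- replicate 2 (-0.15, adjusted p = 0.0565) or wild-type replicate 1 (-0.12, adjusted p = 0.0927).

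The other 14 genes tested were not called, among them the co-Smad gene smad4a, the inhibitory Smad gene smad7 and the second type I receptor gene acvr1bb. Without miR-34a-/- replicate 3 the count of called genes on this list was 8, with trim33, eomesa and furina added. The third Nodal ligand gene ndr3 (southpaw), which acts later in left-right patterning, had at most 3 counts in any library and was not tested. acvr1c and smad3b were too low to be tested, and dand5, an inhibitor that also acts in left-right patterning, had 0 counts in every library.

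**Figure D3:**
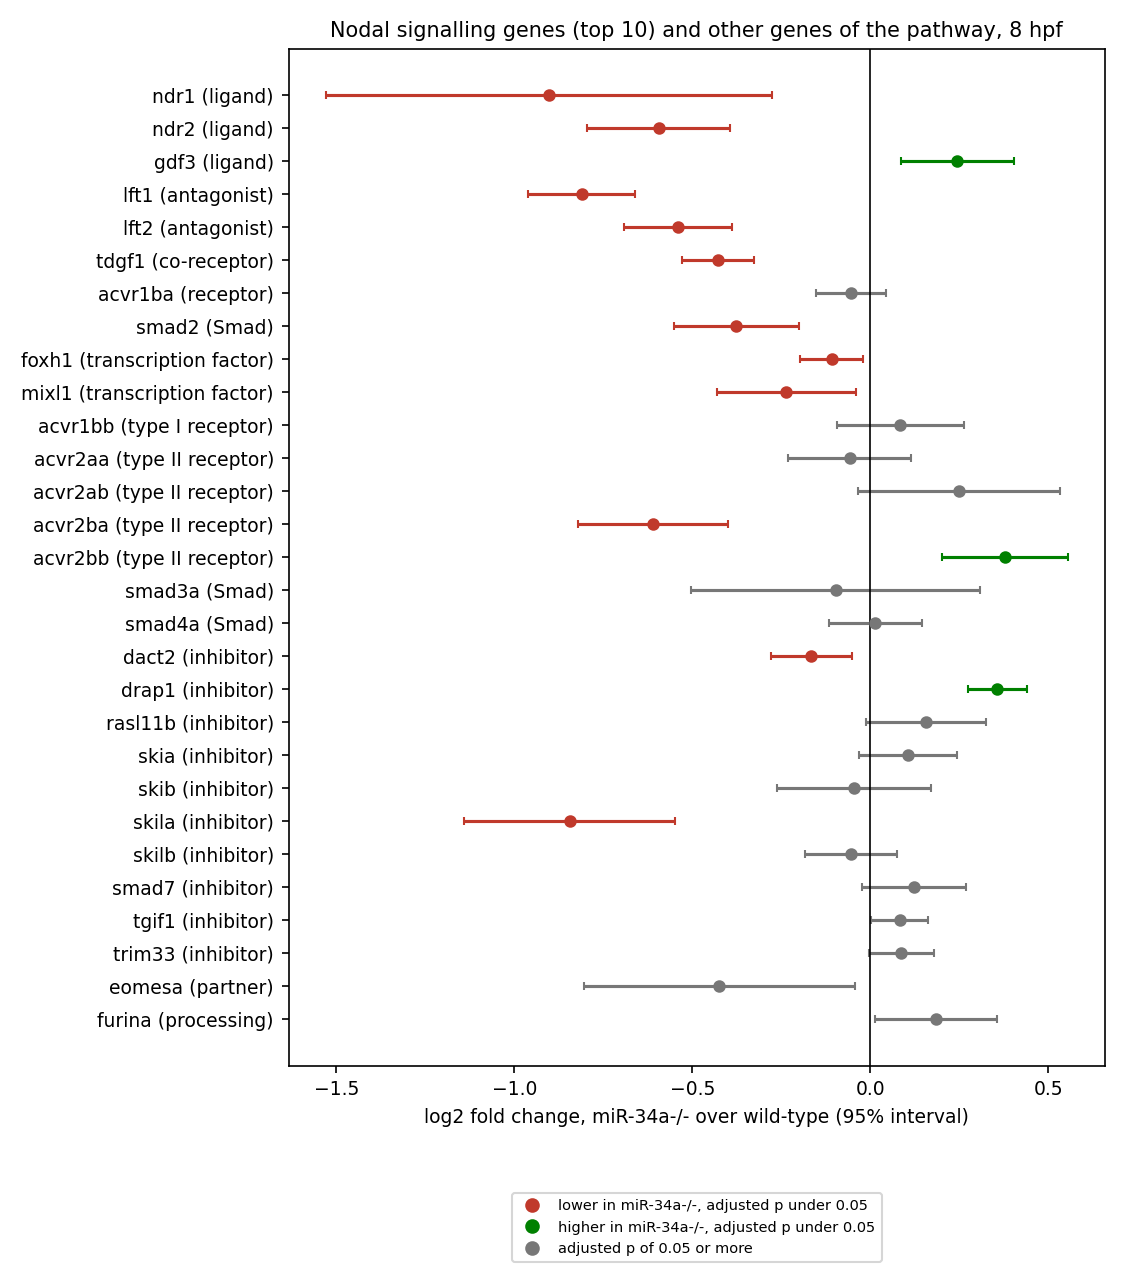
Log2 fold change of miR-34a-/- over wild-type (x axis) with its 95% interval for the 10 Nodal signalling genes, on top, and the 19 tested genes of the rest of the pathway under them, by role. Called genes are coloured red where lower and green where higher in miR-34a-/- embryos, 8 and 1 of the 10 members and 3 and 2 of the other genes.

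Genes that act in mesoderm and endoderm downstream of Nodal were lower or not called. Of 19 such genes, all tested, 14 were called and every one of the 14 was lower in miR-34a-/- embryos, beside 22.4% of all genes called and lower. The list was chosen with earlier results of these data known, so this contrast is not independent of them. The median log2 fold change was -0.20, against -0.40 for the members. None was called and higher, and none was called at 1.5-fold, in edgeR (also at an unadjusted p under 0.05), DESeq2 or limma-voom. The genotypes did not overlap for 7 of the 19, all with miR-34a-/- libraries lower, beside 19.2% of all genes. The summed level of the 19 genes was 3156 to 3548 CPM in miR-34a-/- libraries and 3746 to 3909 CPM in wild-type libraries.

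In the axial mesoderm, foxa2, a forkhead gene of the floor plate, prechordal plate and endoderm, had 38.7, 38.9, 38.2 and 41.7 CPM in miR-34a-/- embryos, against 54.9, 62.5, 49.8 and 46.0 CPM in wild-type embryos. The miR-34a-/- libraries were below every wild-type library, with a log2 fold change of -0.44 (SE 0.08, edgeR adjusted p = 2.7e-05). The notochord gene noto (log2 fold change -0.28 ± 0.07, SE) and the organizer gene gsc (-0.38 ± 0.10, SE) were lower as well, with adjusted p = 0.0013 and 0.0021 in edgeR. For both, 3 of the 4 miR-34a-/- libraries lay below the lowest wild-type library. Of the 6 axial genes on the list, dkk1b was the 1 not called.

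In the mesoderm of the whole margin, tbx16, a T-box gene of mesoderm formation, had 439, 445, 417 and 462 CPM in miR-34a-/- embryos, against 515, 529, 542 and 492 CPM in wild-type embryos. The log2 fold change of tbx16 was -0.24 (SE 0.04, edgeR adjusted p = 2.4e-05), and that of its relative tbxta (no tail), also without overlap, was -0.20 (SE 0.04, edgeR adjusted p = 8.0e-05). fgf3, a growth factor gene of the margin, was lower by a log2 fold change of -0.33 (SE 0.11, edgeR adjusted p = 0.022), but its call was lost without miR-34a-/- replicate 1 (-0.31, adjusted p = 0.0534) or 3 (-0.27, adjusted p = 0.0687) or wild-type replicate 2 (-0.27, adjusted p = 0.0746) or 3 (-0.29, adjusted p = 0.0619).

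In the endoderm, sox17 had 22.5, 18.5, 20.9 and 21.7 CPM in miR-34a-/- embryos, against 30.1, 28.7, 28.4 and 32.0 CPM in wild-type embryos. The genotypes of this endoderm transcription factor gene were well apart, and its log2 fold change of -0.50 (SE 0.08, edgeR adjusted p = 1.3e-05), 1.42-fold lower, was the largest on the list. sox32, which acts upstream of sox17 and is required for it, had 188 ± 14.2 CPM in miR-34a-/- embryos and 197 ± 12.5 CPM in wild-type embryos (SD, n = 4 each). The log2 fold change of sox32 was -0.07 (SE 0.05, edgeR adjusted p = 0.31) and was not called. The chemokine receptor gene cxcr4a of migrating endoderm had a log2 fold change of -0.37 (SE 0.06, edgeR adjusted p = 5.3e-06) and the actin-bundling gene fscn1a one of -0.23 (SE 0.04, edgeR adjusted p = 8.7e-05). Both had all miR-34a-/- libraries below all wild-type libraries. The genes of this list that were not called, dkk1b, osr1, sox32, gata6 and sebox, are named after their values were seen.

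**Figure D4:**
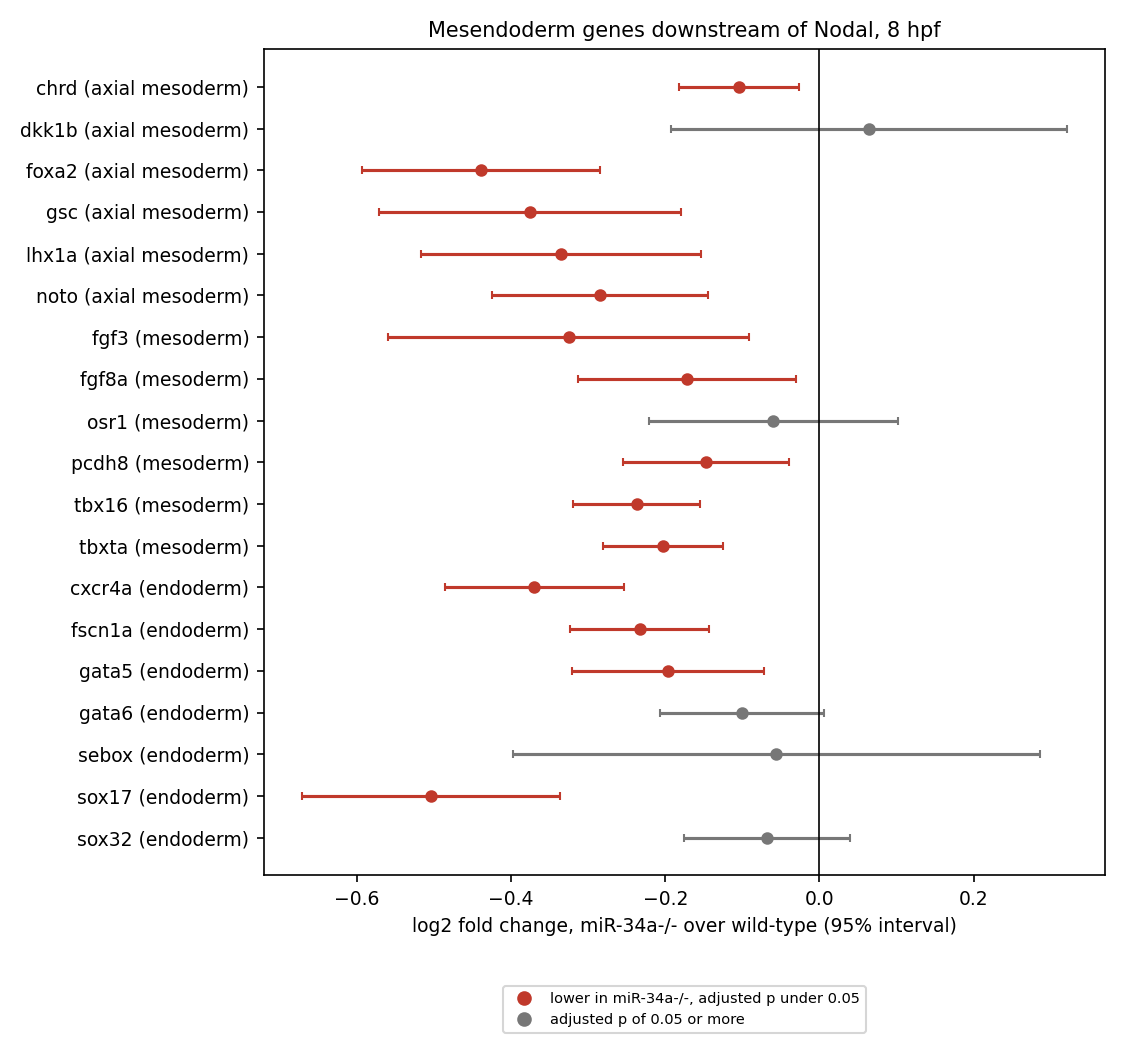
Log2 fold change of miR-34a-/- over wild-type (x axis) with its 95% interval for 19 mesoderm and endoderm genes downstream of Nodal, grouped by tissue. The 14 genes in red were called and lower in miR-34a-/- embryos, the 5 in grey were not called, and sox17 has the largest change, at -0.50.

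Markers of other cell types and genes listed for a later stage were read beside these groups. Of 8 genes listed as markers of the segmentation stages, 4 had enough counts to be tested. All 4 were called and lower in miR-34a-/- embryos without overlap, with a median log2 fold change of -0.95. Of these, pax2a had at most 0.523 CPM in miR-34a-/- libraries and at least 1.41 CPM in wild-type libraries. meox1 had 0.273 to 1.026 CPM against 1.030 to 2.028 CPM. Both had enough counts only through the wild-type libraries, so their being lower is not independent of the filter. The log2 fold changes of tbx6 and myf5 were -0.89 and -0.60. Over all genes 22.4% were called and lower, and 19.2% were lower without overlap. Of the 8 genes, tbx6 and myf5 had the highest mean CPM and lead the sums given above, which did not overlap. Their means were 8.61 and 6.38 CPM in miR-34a-/- embryos and 15.6 and 9.42 CPM in wild-type embryos. Both were thus already on at 8 hpf in both genotypes. A difference in developmental progress between the pools and an effect of genotype cannot be told apart in these data. The part of stage in the mesendoderm results was not tested either.

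Counts of called genes in the other cell layers stand beside 23% called and higher and 22.4% called and lower over all genes. All 4 neural ectoderm genes were tested and none was called, with sums of 599 to 694 CPM in miR-34a-/- libraries and 598 to 712 CPM in wild-type libraries, led by sox3 and sox2. The count was also 0 at an unadjusted p under 0.05 and with DESeq2 and limma-voom. Of 4 ventral ectoderm genes, 1 was called, and it was higher, with sums of 546 to 572 CPM in miR-34a-/- libraries and 519 to 573 CPM in wild-type libraries, led by tfap2c and gata2a. Of 5 genes of the enveloping layer, the outer epithelium, 1 was higher and 2 were lower, with sums of 11521 to 12097 CPM in miR-34a-/- libraries and 11496 to 12891 CPM in wild-type libraries, led by krt4 and krt8. The sums of each of these 3 layers overlapped between the genotypes.

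Nodal ligands are also made in the yolk syncytial layer, the nuclei at the yolk surface. Of 3 of its marker genes, 1 was called and lower, beside 22.4% of all genes, and their sum was 136 to 158 CPM in miR-34a-/- libraries and 157 to 191 CPM in wild-type libraries, led by slc26a1 and mxtx1, so that the ranges just overlapped. Of 3 germ cell genes, 1 was higher and 1 lower, with sums of 89.0 to 96.4 CPM in miR-34a-/- libraries and 99.9 to 126 CPM in wild-type libraries, led by ddx4 and nanos3, without overlap. None of the marker genes named here was at 0 in every library. The part of cell composition in the results for the Nodal signalling genes was not tested.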

How the data were processed

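Whole zebrafish embryos at 8 hpf were profiled by RNA sequencing in 4 miR-34a-/- and 4 wild-type libraries. Per the labels and the methods, reads were trimmed with Trim Galore 0.4.4 and mapped with STAR 2.7.8 to danRer11, and the authors deposited unnormalized counts per Ensembl gene. The counting program, annotation release and use of strand are not given in the sources used here. The 8 libraries held between 7132045 and 15724724 counts, every row named a gene, and 7300 of the 32520 genes had no count.

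Genotypes were compared in R 4.3.3 with edgeR 4.0.16 (TMM normalization, filterByExpr, quasi-likelihood test, genotype as the only term, Benjamini-Hochberg adjustment over the 13842 genes tested). Single genes were also compared by two-sided exact permutation tests of mean log2(CPM + 0.1) over 70 assignments. All 8 libraries entered as separate replicates. Over 9706 well-counted genes the chi-square per gene was 1.59 to 5.80 within a genotype and 13.1 to 26.6 between genotypes. These values cannot show whether the libraries came from separate clutches. The fit was tested on simulated data with 50 genes changed at each fold, drawn from genes with a mean above 2 CPM. It called 52% of them at 1.25-fold, 72% at 1.5-fold and 100% at 2-fold, and 2.99% of its calls were false. Far fewer genes were changed there than were called in the data, and the shares recovered do not cover genes under that mean. Alternatives were other normalizations, filters and fold cut-offs, the likelihood ratio test, DESeq2 1.42.0, limma-voom (limma 3.58.1), a replicate block and leaving out each library.

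Symbols came from a table of gene names, which names 29201 of the 32520 genes. Where an identifier or symbol was shared, the gene order of the assembly GRCz12tu was used, over 10 genes on each side. The members and lists were chosen with earlier results of these data known. Named are all members, and of the pathway and mesendoderm lists the called genes with the smallest adjusted p, up to 3 for each role and direction. The other marker lists are given by counts and sums with their 2 genes of highest mean CPM. Other genes are named after their values were seen. Plots used matplotlib 3.10.9 (Python 3.11.15).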

Additional observations from a re-analysis of the deposited data

Results flagged for a closer look

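Within-group spread was checked in 48 groups of 4 libraries, 24 genes in each genotype, and in 2 of them 1 library stood apart from the others by Dixon's criterion. Chance gives about 1 such group in 20. For ndr2, miR-34a-/- replicate 3 stood at 12.0 CPM, while the other 3 miR-34a-/- libraries lay between 13.59 and 13.66 CPM. All 4 remained below the lowest wild-type library, and the range of the log2 fold change over the left-out libraries was -0.66 to -0.54. For skila, miR-34a-/- replicate 4 stood at 5.71 CPM and the others between 4.41 and 4.60 CPM, on the side of the wild-type libraries but below all of them.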

How the results depend on the processing

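The number of Nodal signalling genes called was 3 at 1.5-fold and 0 at 2-fold, in place of 9 without a fold cut-off, and that of all genes 2436 and 1123. With limma-voom ndr1 passed 2-fold (log2 fold change -1.06), and it did so in edgeR without miR-34a-/- replicate 2 (-1.12) or 4 (-1.19). Leaving out 1 library in turn gave 6 to 9 members (6 without miR-34a-/- replicate 1 or 3 or wild-type replicate 3), 4 to 8 of the other pathway genes (8 without miR-34a-/- replicate 3), 10 to 14 of the mesendoderm genes and 5731 to 6035 of all genes. DESeq2 called 7 members and 5407 genes. The replicate numbers did not pair the libraries, since the deviations of same-numbered libraries correlated at -0.032 to 0.0077, and a replicate block gave 9 members, 6 other pathway genes, 13 mesendoderm genes and 6082 genes in all. Of 408 values of single named genes under the alternatives, 26 lost their call, all of ndr1, gdf3, foxh1, mixl1, dact2 or fgf3, and none changed sign. With upper quartile normalization the calls over all genes split into 2929 higher and 3382 lower, against 3178 and 3102 with TMM. Depth limits ndr1 most, with 4 to 32 counts per library.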
